A study of Mus musculus with 40 samples.

Results

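The integrated and endoplasmic reticulum (ER) stress genes Atf4, Ddit3, Asns, Trib3, Chac1, Sesn2, Hspa5, Xbp1, Ppp1r15a and Phgdh were followed through mouse brown adipose tissue. They were chosen by name, as the rows of the count table whose Ensembl identifiers map to these symbols. All 10 were found among the 52636 genes of the table, and all 10 passed the filter on low counts that left 17079 genes for testing. Bulk RNA sequencing had been done on the tissue of 40 male C57BL/6 mice, 5 in each of 8 groups. The design text gives their age as 10 to 12 weeks and the sample labels as 10 to 14 weeks. Every mouse received 1 intraperitoneal antibody dose. Control mice received an isotype antibody against ragweed at 40 mg/kg, and the others received blocking antibodies against the Notch ligands Jag1 and Jag2 at 20 mg/kg each. Tissue was taken after 15 h, 5 d or 7 d. At 7 d each antibody was also given with daily thyroid hormone from day 2, thyroxine (T4) at 1 ug/g and triiodothyronine (T3) at 0.05 ug/g. The hormone groups differ from the groups without it by these injections, and what the other mice were injected with in their place is not given in the labels. Mice are named here by antibody, time and the number in their label, 1 to 5 for control mice and 6 to 10 for Jag antibody mice. The title of the study places its subject in Notch signalling of the thyroid, so the comparisons ask what ligand blockade and hormone supply did to this gene group in a tissue that responds to thyroid hormone.

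In the integrated stress response, kinases that sense unfolded protein, amino acid shortage, haem shortage or viral RNA phosphorylate the translation factor eIF2alpha, which lowers general translation while translation of the Atf4 mRNA rises. ATF4 is a transcription factor that drives genes of amino acid synthesis and transport, and DDIT3 (CHOP), TRIB3, CHAC1 and SESN2 act further down, while PPP1R15A (GADD34) brings a phosphatase to eIF2alpha and so closes the response. The ER branch runs in parallel: HSPA5 (BiP) is the main ER chaperone and XBP1 is the factor whose mRNA is spliced by the sensor IRE1. Brown adipocytes are rich in mitochondria and burn fuel for heat, and the integrated stress response in them is known for its link to mitochondrial stress. Gene counts give mRNA amounts only. Phosphorylation of eIF2alpha, translation of Atf4 and splicing of Xbp1 were not measured.

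The libraries held 12217623 to 36511893 counts, with a median of 18949808, and all 8 brown adipocyte markers (Ucp1, Cidea, Ppargc1a, Dio2, Elovl3, Adipoq, Plin1, Fabp4) were detected in all 40. Skeletal muscle RNA was uneven. A muscle score, the mean log2 CPM (counts scaled to a shared library size) of 8 muscle genes, ran from 5.10 to 13.7 in control mice at 5 d and from -2.69 to 2.20 in Jag antibody mice at 5 d. Control mice 2 and 3 at 15 h had the highest myeloid scores (8.61 and 6.67, against 1.15 to 5.07 elsewhere), and Jag antibody mouse 6 at 15 h had the highest B cell and T cell scores (3.36 and 2.76). Control mice 2 and 4 at 7 d had the lowest normalisation factors (0.686 and 0.647). Libraries also differed in how counts depended on transcript length, given below as a length slope: the change of a gene's log2 CPM, as a difference from its average over libraries, per doubling of exon length. In bulk tissue, fewer cells of a type and less RNA per cell cannot be told apart.

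Promoter sequence is shown for the members in which a classical stress element was found, because these 4 are textbook ATF4 or ER stress targets whose levels are followed below. Windows from 250 bases before to 50 bases after the RefSeq start (GRCm38.p6) were searched on both strands. The C/EBP-ATF element was searched as TGATGNAA, the ER stress element as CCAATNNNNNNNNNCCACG and the unfolded protein response element as TGACGTG. Neither of the last 2 contains the other. Stretches are written 5′ to 3′ on the gene's strand, and capitals mark the match or, where it lies on the other strand, its reverse complement. Asns is shown at chr6:7693210-7693269 (- strand), Chac1 at chr2:119351012-119351092 (+ strand), Trib3 at chr2:152344028-152344057 (- strand, past the RefSeq start) and Hspa5 at chr2:34771925-34772050 (+ strand).
Asns: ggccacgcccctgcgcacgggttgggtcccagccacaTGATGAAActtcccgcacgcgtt
Chac1: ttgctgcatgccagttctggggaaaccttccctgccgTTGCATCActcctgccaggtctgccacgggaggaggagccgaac
Trib3: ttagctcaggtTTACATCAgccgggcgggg
Hspa5: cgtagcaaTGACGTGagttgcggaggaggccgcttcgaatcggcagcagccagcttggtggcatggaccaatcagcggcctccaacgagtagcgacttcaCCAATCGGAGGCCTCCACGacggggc

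The C/EBP-ATF element lay 23 bases before the start of Asns on the gene's strand, 193 bases before the start of Chac1 on the other strand and 14 bases past the start of Trib3 on the other strand. It was thus in 3 of the 10 members' windows, against 3.97% of all 32851 windows, and on the gene's strand alone in 1 of 10, against 2.12%. Hspa5 held the ER stress element 65 bases and the unfolded protein response element 157 bases before its start. Each was in 1 of 10 members' windows, against 0.119% and 2.01% of all windows. All these distances are from the RefSeq start, which differs from the start in GENCODE M21, the source of the gene coordinates given below. By the GENCODE M21 starts, the Asns element and the ER stress element of Hspa5 lie past the start. The Trib3 element then lies before it. A match is a description of the letters in the window and does not show a bound site.

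Per kilobase of exon, the ER chaperone Hspa5 was the most abundant member, with a median over the 40 mice of 96.6 CPM per kb, followed by Atf4 with 72.0. Xbp1 (34.4), Asns (27.5) and Ddit3 (19.3) were intermediate in CPM per kb. Ppp1r15a (7.54), Sesn2 (5.84) and Trib3 (3.78) were lower, and Chac1 (0.808) and Phgdh (0.264) were lowest. Chac1 had 4 to 1248 counts per library and Phgdh 0 to 80, with 1 library at 0, so these 2 genes carry the largest counting error. Within groups the standard deviation of log2 CPM was 0.26 for Hspa5, 0.31 for Asns and 0.36 for Atf4, and 1.42 for Chac1.

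Group means moved most for Chac1 and Phgdh and least for Hspa5, whose highest and lowest group means lay 0.63 log2 CPM apart. The share of variance between groups was highest for Asns (71.1%) and lowest for Trib3 (22.6%). Atf4 and Ddit3 were both highest in control mice at 7 d (8.21 ± 0.31 and 5.79 ± 0.24 log2 CPM, SD, n = 5) and both lowest in control mice given hormone (6.91 ± 0.21 and 4.60 ± 0.30). Asns was highest in Jag antibody mice at 7 d (6.91 ± 0.29) and also lowest in control mice given hormone (5.70 ± 0.26). Trib3 and Sesn2 had their highest means in Jag antibody mice at 5 d (3.50 ± 0.53 and 5.45 ± 0.42), and Hspa5, Xbp1 and Ppp1r15a had theirs at 15 h. When the 8 groups were put in order of their means for each gene, none of the 70 pairs of neighbouring groups was free of overlap. Neighbours in this order have the closest means, and the count was not taken over all tested genes. It does not bear on groups farther apart, some of which did not overlap, as given below.

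**Figure D1:**
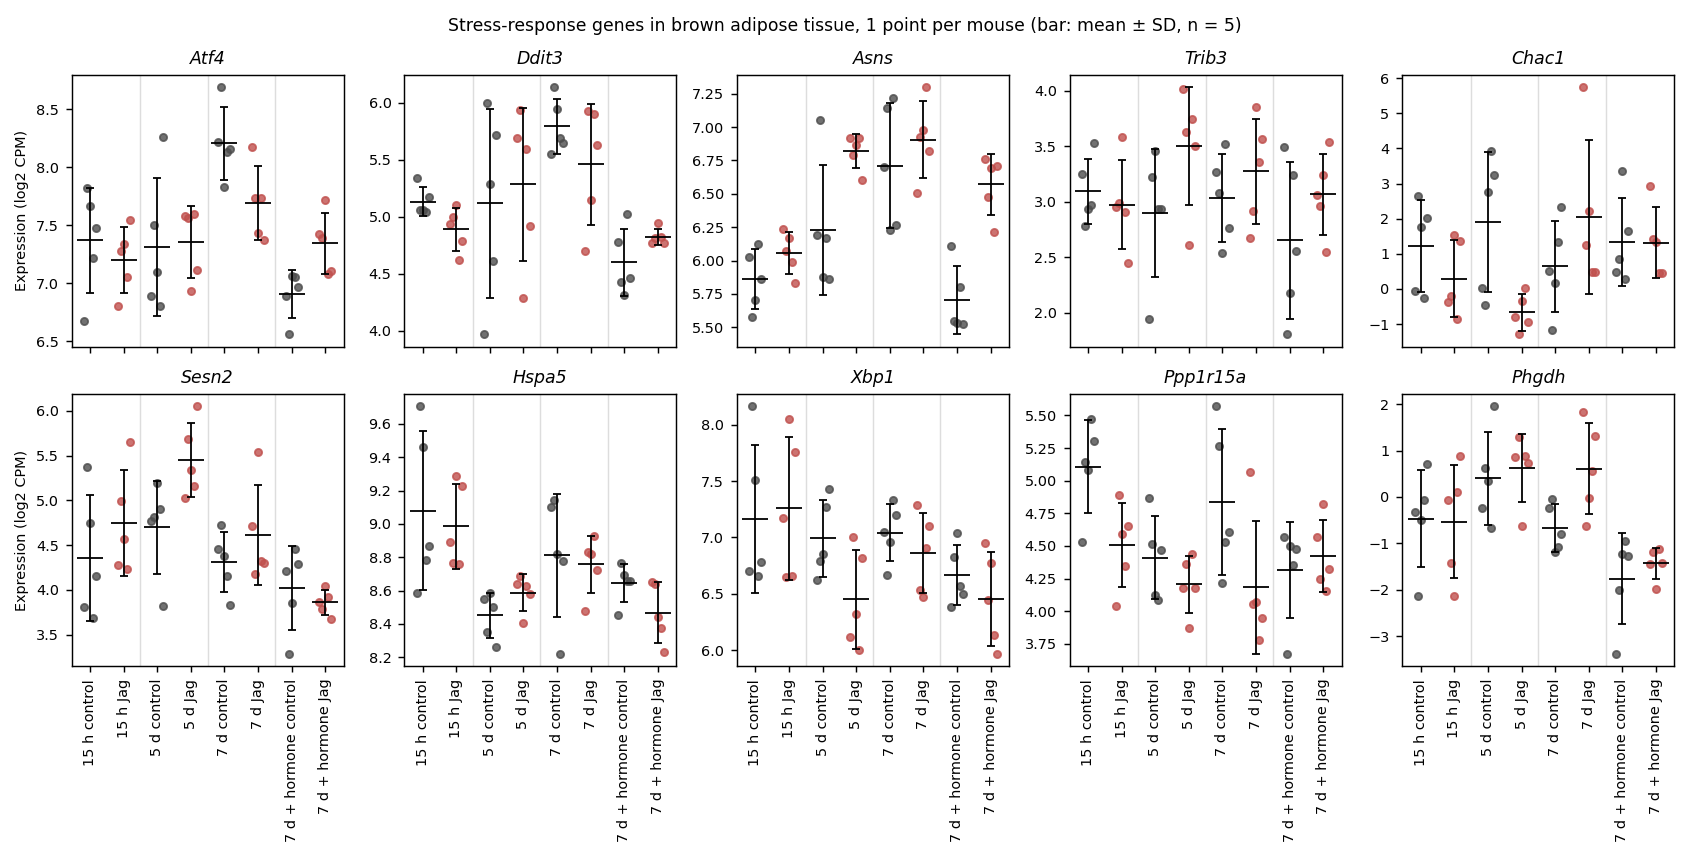
Expression of the 10 stress-response genes in log2 CPM (y axis) in each of the 8 groups (x axis), 1 point per mouse, grey for control and red for Jag antibodies, with the mean as a bar and the SD as whiskers (n = 5). Atf4, Ddit3 and Asns are lowest in control mice given hormone, and Chac1 reaches 5.75 in 1 Jag antibody mouse at 7 d.

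With thyroid hormone, lower levels were found for the transcription factors Atf4 and Ddit3 and the ATF4 target Asns, asparagine synthetase, in control mice, to less than a factor of 0.5 of their level at 7 d without hormone. A smaller fall of the phosphatase subunit Ppp1r15a also passed the test. The other targets and the ER genes Hspa5 and Xbp1 did not pass it. In the same comparison 43.2% of all tested genes were called (edgeR quasi-likelihood test, Benjamini-Hochberg adjusted p under 0.05) and 22.9% were called lower, so the 4 of 10 members called lower were set against a broad change of the tissue. Called or not, 9 of 10 members had lower estimates (8 of 10 with offsets for transcript length and GC content), with a median log2 fold change of -0.48 against 0.04 over all tested genes.

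Atf4 (chr15:80255184-80257541, + strand) stood at 8.22, 8.69, 7.83, 8.13 and 8.16 log2 CPM in control mice 1 to 5 at 7 d and at 6.89, 6.56, 7.07, 7.06 and 6.97 in control mice 1 to 5 given hormone. The lowest mouse without hormone was above the highest mouse with it. The log2 fold change was -1.32 ± 0.23 (SE), a level of 0.402 times that without hormone, with an edgeR adjusted p of 6.47e-05. Under the Jag antibodies Atf4 was 8.17, 7.74, 7.44, 7.74 and 7.37 in mice 6 to 10 at 7 d and 7.43, 7.39, 7.72, 7.08 and 7.11 with hormone. Those groups overlapped, and the estimate of -0.36 (95% interval -0.82 to 0.11, edgeR adjusted p = 0.319) was not called.

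Ddit3 (chr10:127290774-127296288, + strand), the CHOP gene, ranged from 5.55 to 6.14 log2 CPM in control mice at 7 d and from 4.31 to 5.03 in those given hormone. Again no mouse of one group reached the other. Its log2 fold change was -1.19 ± 0.27 (edgeR adjusted p = 0.000752). Under the Jag antibodies the 5 values without hormone were 4.70, 5.93, 5.15, 5.90 and 5.63 in mice 6 to 10, and with hormone they lay between 4.77 and 4.94. Mouse 6, the lowest without hormone, fell below the whole hormone group, and the estimate of -0.71 ± 0.27 was not called (edgeR adjusted p = 0.0836). Without that mouse it was -0.86 and called (edgeR adjusted p = 0.0353). The tested gene Mars overlaps Ddit3 on the opposite strand by 68 bases with 58127 counts in all against 29417 for Ddit3, and use of the strand in counting is not given in the sources used here.

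Asns (chr6:7675169-7693254, - strand) was 6.70, 7.14, 6.23, 7.22 and 6.27 log2 CPM in control mice 1 to 5 at 7 d and 6.11, 5.55, 5.53, 5.80 and 5.52 with hormone, again with no overlap. The log2 fold change was -1.05 ± 0.20 (edgeR adjusted p = 0.000128). In Jag antibody mice 6 to 10 Asns was 6.51, 6.93, 6.98, 7.30 and 6.82 without hormone and 6.76, 6.48, 6.70, 6.21 and 6.71 with it. Here the groups overlapped and the estimate of -0.34 ± 0.20 was not called (edgeR adjusted p = 0.257).

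Ppp1r15a (chr7:45522916-45526268, - strand) was 5.57, 5.27, 4.21, 4.53 and 4.60 log2 CPM in control mice 1 to 5 at 7 d and 4.57, 3.67, 4.50, 4.36 and 4.48 with hormone. The groups overlapped. Its log2 fold change of -0.58 ± 0.24 had an edgeR adjusted p of 0.0479. The call was lost without control mouse 1 (adjusted p = 0.228) or 2 (0.127) at 7 d, and without hormone-treated control mouse 2 (0.147), 3 (0.0621), 4 (0.0802) or 5 (0.0700). It was also lost under 9 of 13 other alternatives.

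Phgdh (chr3:98313170-98339990, - strand) encodes the first enzyme of serine synthesis and is an ATF4 target. In Jag antibody mice 6 to 10 it had 80, 10, 24, 20 and 49 counts at 7 d and 5, 8, 3, 10 and 5 counts with hormone. On the log2 CPM scale this was 1.82, -0.61, -0.03, 0.56 and 1.31 without hormone and -1.44, -1.18, -1.97, -1.11 and -1.43 with it, and the groups did not overlap. Phgdh fell by 2.57 ± 0.64 on the log2 scale (edgeR adjusted p = 0.00902) and was the 1 member of 10 called with hormone under the Jag antibodies, where 9.5% of all tested genes were called and 5.21% were called lower. Under the control antibody the counts were 14, 10, 6, 3 and 10 without hormone and 0, 4, 8, 9 and 9 with it, and the estimate of -1.18 ± 0.66 was not called (edgeR adjusted p = 0.151). At these counts a difference of that size could not be told from the spread between mice. Between the 2 Jag antibody groups muscle scores ran from 0.371 to 12.3 without hormone and from -0.824 to 8.78 with it, and 3 of 10 myeloid, 3 of 5 fibroblast and 4 of 4 proliferating cell markers were called higher and 2 of 8 brown adipocyte markers lower. The log2 fold change of Phgdh was -2.30 with the muscle score and -2.57 with the myeloid score in the model (edgeR adjusted p = 0.0120 and 0.0133); the part of the other markers was not tested.

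Of the other targets, Sesn2 (chr4:132492032-132510501, - strand), a sestrin that restrains the growth kinase mTORC1, did not overlap between the 2 Jag antibody groups. It was 4.18 to 5.55 log2 CPM without hormone and 3.67 to 4.04 with it, yet the estimate of -0.85 ± 0.31 was not called (edgeR adjusted p = 0.0705). Trib3 (chr2:152337422-152344032, - strand), a pseudokinase that feeds back on ATF4, had estimates of -0.29 and -0.23 under the 2 antibodies, both 0.02 with the length and GC offsets. Hspa5 (chr2:34771970-34777547, + strand) had estimates of -0.20 (95% interval -0.55 to 0.15) and -0.29 (-0.64 to 0.06), and Xbp1 (chr11:5520659-5525893, + strand) had -0.37 and -0.39. Chac1 (chr2:119351229-119354381, + strand), which degrades glutathione, was 0.77 higher under the control antibody and 2.07 lower under the Jag antibodies by estimate, with standard errors of 0.91 and 0.92; the first was -0.25 with the myeloid score as a covariate. None of these was called. Sets of mice that did not overlap were found for 3 members under the control antibody (29.8% of all tested genes) and for 2 under the Jag antibodies (12% of all tested genes).

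**Figure D2:**
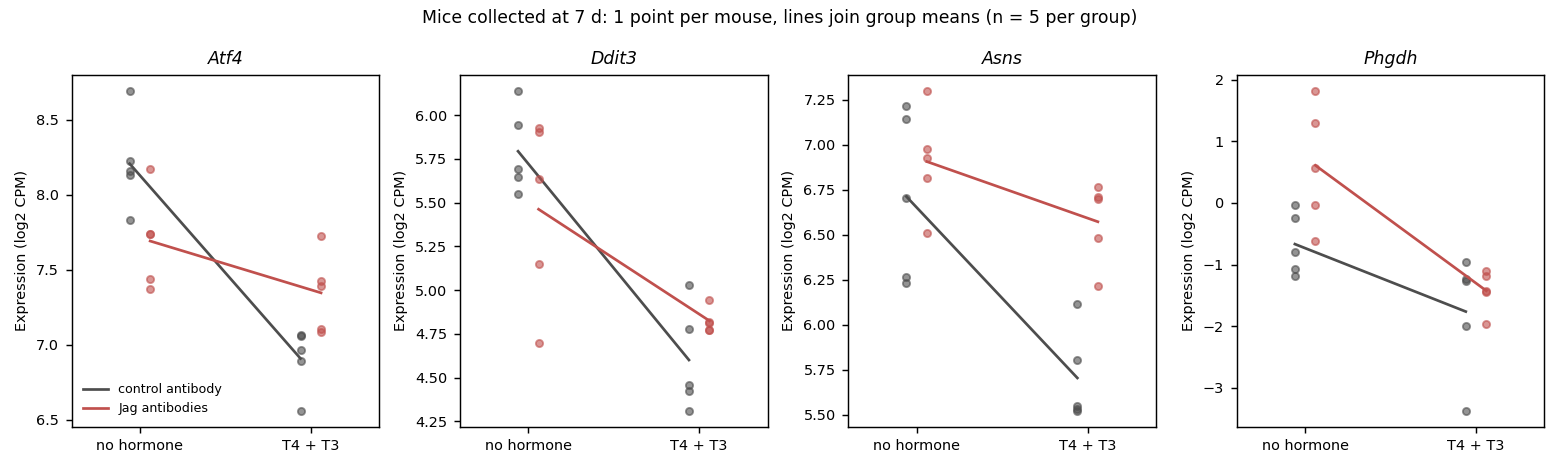
Expression in log2 CPM (y axis) of Atf4, Ddit3, Asns and Phgdh in mice collected at 7 d without hormone or with T4 and T3 (x axis), 1 point per mouse, grey for control and red for Jag antibodies, with lines joining the group means (n = 5). The grey lines of Atf4, Ddit3 and Asns drop by more than 1 log2 unit, and the red line of Phgdh drops from 0.61 to -1.43.

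Other measures of the tissue moved with hormone. Under the control antibody the brown adipocyte score was 10.0 to 10.8 without hormone and 8.55 to 9.39 with it, and 5 of 8 brown adipocyte markers were called lower. Myeloid scores were 1.15 to 3.03 without and 3.25 to 4.42 with hormone (6 of 10 markers called higher), and proliferating cell scores were -1.61 to -0.00143 and 2.74 to 3.75 (4 of 4 called higher). Fibroblast scores were 5.94 to 6.80 and 7.53 to 8.70 (4 of 5 called higher), 3 of 4 endothelial markers were called higher, and none of the 8 muscle markers was called. No marker of any of these lists was at 0 in every library. Length slopes ran from -0.542 to -0.0593 without and from 0.0407 to 0.247 with hormone. With offsets for exonic length and GC content, the log2 fold change was -1.08 for Atf4, -0.78 for Asns and -0.61 for Ddit3 (edgeR adjusted p = 0.000117, 0.000728 and 0.0284), so the value for Ddit3 was reduced most. With the replicate number as a block added to these offsets, Ddit3 was at -0.57 and no longer called (edgeR adjusted p = 0.0574). With the myeloid score as a covariate, an alternative chosen after seeing the data, Atf4 was at -1.65 and the estimates for Hspa5 (-0.47) and Xbp1 (-0.83) became called (edgeR adjusted p = 0.0150 and 0.00495). The part of cell composition in these differences was not tested further.

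**Figure D3:**
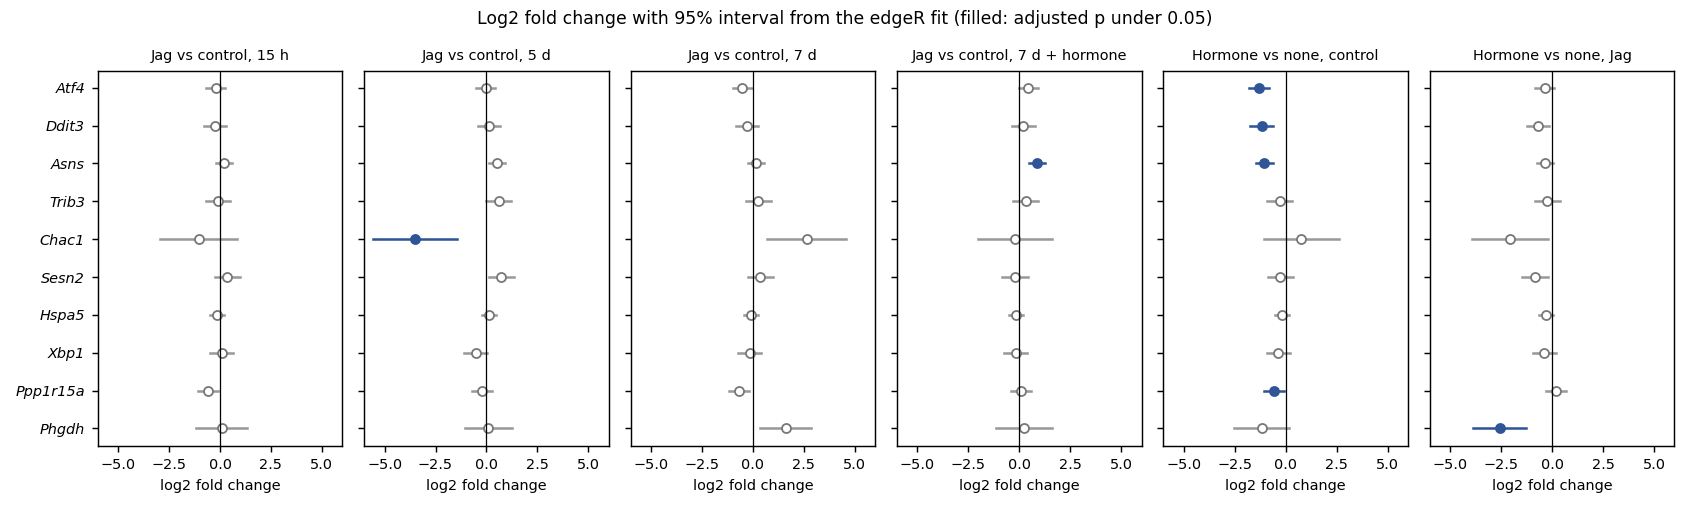
Log2 fold changes (x axis) of the 10 genes (y axis) in the 6 comparisons of 2 groups, with 95% intervals from the edgeR fit, filled where the adjusted p was under 0.05. The 4 called falls with hormone under the control antibody stand beside 1 call each for the Jag antibodies at 5 d, for the Jag antibodies when hormone was given, and for hormone in Jag antibody mice.

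Few of these genes were called between the Jag antibodies and the control antibody, as of all tested genes. A gene not called is not shown to be unchanged. None of 10 members was called at 15 h, where 1.14% of all tested genes were. At 5 d 1 was called lower (8.02% of all tested genes called, 5.93% lower) and at 7 d none (2.5%). With hormone 1 was called higher (1.14% called, 0.697% higher). No member was free of overlap between the antibodies at 15 h, 5 d or 7 d, against 2.48%, 4.94% and 3.31% of all tested genes. At an unadjusted p under 0.05 edgeR gave 1 of 10 members at 15 h, against 2052 of 17079 tested genes. At 7 d edgeR gave 4 of 10 members, against 3504 of 17079 tested genes. At an adjusted p under 0.05 edgeR, DESeq2 and limma voom each called 0 members at both times. The smallest adjusted p was 0.224 at 15 h and 0.124 at 7 d in the edgeR test.

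Asns was higher under the Jag antibodies in mice given hormone. Its 5 values of 6.76, 6.48, 6.70, 6.21 and 6.71 log2 CPM in mice 6 to 10 all lay above the 5 values of 6.11, 5.55, 5.53, 5.80 and 5.52 in control mice 1 to 5, although the lowest of the first group and the highest of the second were close. The log2 fold change was 0.86 ± 0.20, a level 1.82 times that of the control antibody (edgeR adjusted p = 0.0193). The call held under 9 of 9 other processing alternatives. It was lost, with the estimate between 0.79 and 0.83, without control mouse 2 (adjusted p = 0.0607), 3 (0.0606) or 5 (0.0610) or without Jag antibody mouse 6 (0.0685) or 10 (0.0644). Atf4 did not overlap between these groups either (6.56 to 7.07 against 7.08 to 7.72) but its estimate of 0.45 ± 0.23 was not called (edgeR adjusted p = 0.454). These 2 were the members without overlap, a state that 6.59% of all tested genes shared. Proliferating cell scores were 2.74 to 3.75 in the control group and 0.794 to 3.01 in the Jag antibody group, and none of the 4 markers was called. Of the 5 fibroblast markers 2 were called lower, Col1a1 and Col3a1 (median of the 5 -0.95), with scores of 7.53 to 8.70 in the control group and 6.55 to 7.65 in the Jag antibody group. Their part in the difference of Asns was not tested.

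At 5 d Asns, Sesn2 and Trib3 had higher estimates under the Jag antibodies without passing the test. Asns was 6.92, 6.79, 6.87, 6.92 and 6.61 log2 CPM in Jag antibody mice 6 to 10 and 6.19, 7.05, 5.88, 6.17 and 5.86 in control mice 1 to 5. Control mouse 2 was above every Jag antibody mouse, and the other 4 controls were below all of them. The estimate was 0.52 ± 0.20 (edgeR adjusted p = 0.0944), and without control mouse 2 it was 0.75 and called (edgeR adjusted p = 0.00959). Sesn2 was 5.03 to 6.05 against 3.82 to 5.20 (0.74 ± 0.31, edgeR adjusted p = 0.132), and Trib3 was 2.61 to 4.02 against 1.94 to 3.46 (0.60 ± 0.30, edgeR adjusted p = 0.224). With length and GC offsets these 3 were called, with log2 fold changes of 0.54 for Asns, 0.98 for Sesn2 and 0.92 for Trib3 (edgeR adjusted p = 0.0392, 0.0368 and 0.0303). With the muscle score in the model they were 0.38, 0.48 and 0.36 (edgeR adjusted p = 0.582, 0.695 and 0.788). The same offsets moved the share of higher genes among all genes called at 5 d from 26.1% to 42.6%.

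Chac1 was the member called at 5 d. It had 31, 14, 194, 568 and 112 counts in control mice 1 to 5 and 9, 5, 15, 18 and 16 in Jag antibody mice 6 to 10, that is 0.04, -0.46, 2.76, 3.93 and 3.25 log2 CPM against -0.79, -1.30, -0.34, 0.03 and -0.94. Control mice 3, 4 and 5 were high, and control mice 1 and 2 lay within or near the Jag antibody group, so the groups overlapped. The log2 fold change was -3.52 ± 1.01 (edgeR adjusted p = 0.0284). The muscle scores of control mice 1 to 5 were 8.26, 5.10, 11.3, 11.2 and 13.7, with the 3 mice high in Chac1 also the 3 highest in muscle score, and 6 of 8 muscle markers were called lower under the Jag antibodies at 5 d. A model that held the muscle score gave an estimate for Chac1 of -1.36 (edgeR adjusted p = 0.676). The call was also lost without control mouse 4 (0.0674) or 5 (0.0679), and without Jag antibody mouse 6 (0.0639), 7 (0.0600), 8 (0.0649), 9 (0.0503) or 10 (0.0694).

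At 7 d Chac1 was higher under the Jag antibodies by estimate (2.63 ± 0.95, edgeR adjusted p = 0.124). Jag antibody mouse 6 held 1248 counts and the other 4 held 41, 124, 19 and 27, while the 5 controls held 25, 4, 18, 19 and 104. That mouse also had the highest muscle score of the 7 d groups (12.3). Phgdh had an estimate of 1.60 ± 0.62 (edgeR adjusted p = 0.147), with 10 to 80 counts against 3 to 14. Atf4 had an estimate of -0.51 ± 0.23 (edgeR adjusted p = 0.200), and Ppp1r15a one of -0.66 ± 0.24 (0.126). Ppp1r15a was 5.07 log2 CPM in Jag antibody mouse 6 and 3.78 to 4.07 in the other 4. Its fall became called without that mouse (-0.96, edgeR adjusted p = 0.0348) or without control mouse 3 (-0.80, 0.0492).

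Ppp1r15a was also the member with an unadjusted p under 0.05 at 15 h, at 4.53 to 5.47 log2 CPM in control mice and 4.04 to 4.89 in Jag antibody mice (-0.61 ± 0.24, edgeR adjusted p = 0.224). At 15 h Hspa5 had an estimate of -0.14 (95% interval -0.49 to 0.21), which was 0.03 with the myeloid score as a covariate, and Xbp1 one of 0.08 (-0.49 to 0.64). Over the 4 antibody comparisons neither Hspa5 nor Xbp1 was called, and estimates ran from -0.17 to 0.14 for Hspa5 and from -0.52 to 0.08 for Xbp1.

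Whether the response to hormone differed between antibodies was tested as an interaction at 7 d. No member of 10 was called, and 0.00586% of all tested genes were, which is 1 gene. At an unadjusted p under 0.05 edgeR gave 4 of 10 members, against 2103 of 17079 tested genes. At an adjusted p under 0.05 DESeq2 and limma voom also called 0 members. The difference between the hormone effects, Jag minus control antibody, was 0.96 ± 0.32 for Atf4, 0.71 ± 0.28 for Asns, 0.76 ± 0.34 for Ppp1r15a and -2.84 ± 1.29 for Chac1 on the log2 scale (edgeR adjusted p = 0.374, 0.374, 0.380 and 0.381). The 95% interval for Atf4 was 0.30 to 1.62. For Chac1, Jag antibody mouse 6 at 7 d without hormone held 1248 counts, against 19 to 124 in the others of its group. A larger fall under the control antibody is thus not shown for any member.

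Across collection times without hormone, 4 members were called under the control antibody, where 52.7% of all tested genes were, and 2 under the Jag antibodies, where 23.8% were. Collection time and any batch of tissue or libraries cannot be told apart. Atf4 rose in control mice from 7.37 ± 0.45 at 15 h and 7.31 ± 0.59 at 5 d to 8.21 ± 0.31 log2 CPM at 7 d (SD, n = 5, edgeR adjusted p over the 3 times = 0.00302). The Jag antibody means were 7.20, 7.36 and 7.69, and time was not called there (edgeR adjusted p = 0.202). Without control mice 2 and 4 at 7 d the call for Atf4 in control mice was lost (edgeR adjusted p = 0.0627), as it was when the fit held only the groups compared (0.0689).

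Asns changed with time under both antibodies. Its means were 5.86 ± 0.23, 6.23 ± 0.49 and 6.71 ± 0.47 log2 CPM in control mice at 15 h, 5 d and 7 d (edgeR adjusted p = 0.00141) and 6.06 ± 0.16, 6.82 ± 0.13 and 6.91 ± 0.29 in Jag antibody mice (edgeR adjusted p = 0.00452). No Jag antibody mouse at 15 h (5.83 to 6.23) reached the lowest at 5 d (6.61). These calls held in all 15 fits without 1 mouse under each antibody. Hspa5 changed under the control antibody, at 9.08 ± 0.48, 8.45 ± 0.14 and 8.81 ± 0.37 (edgeR adjusted p = 0.00498). Its 2 highest values at 15 h, 9.71 and 9.46, were those of control mice 2 and 3, the mice with the highest myeloid scores, and without the 3 libraries that stood apart at 15 h Hspa5 was not called (edgeR adjusted p = 0.149). Ppp1r15a went from 5.11 ± 0.36 to 4.41 ± 0.32 and 4.84 ± 0.56 (edgeR adjusted p = 0.0394), a call lost in 10 of 15 fits without 1 mouse: without control mouse 2, 3, 4 or 5 at 15 h (0.0791, 0.0707, 0.143 and 0.0675), 2, 3, 4 or 5 at 5 d (0.0908, 0.129, 0.103 and 0.0902), or 2 or 4 at 7 d (0.0787 and 0.0629).

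Chac1 was called for time under the Jag antibodies (0.30, -0.67 and 2.04 log2 CPM, edgeR adjusted p = 0.00273) and for the antibody by time interaction (edgeR adjusted p = 0.0401), the 1 member of 10 called in a test where 1.86% of all tested genes were. Its antibody estimates were -1.06 at 15 h, -3.52 at 5 d and 2.63 at 7 d. Without Jag antibody mouse 6 at 7 d neither call remained (edgeR adjusted p = 0.153 and 0.158). After adding the muscle score to the model the edgeR adjusted p was 0.0510 for time and 0.232 for the interaction. The interaction was lost in 19 of 30 fits without 1 mouse and under 11 of 14 other alternatives. The losing mice were control 2 and 3 and Jag 6, 7, 9 and 10 at 15 h, control 3 to 5 and Jag 6 to 10 at 5 d, and control 1 to 4 and Jag 6 at 7 d, with the edgeR adjusted p between 0.0512 and 0.158.

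The wider pathway was described with lists of 37 ATF4 target genes, 11 genes around eIF2alpha, 20 ER chaperones and targets of ATF6 or XBP1, 12 genes of ER-associated degradation, 8 mitochondrial chaperones and proteases, 7 cytosolic heat shock genes, 7 p53 targets and 5 serine and glycine genes. All were tested. With hormone under the control antibody, 10 of 37 ATF4 targets were called higher and 9 lower (median log2 fold change 0.18, all genes 0.04), where 20.3% of all tested genes were called higher and 22.9% lower. Among those higher were the arginine transporter Slc7a1 (2.49 ± 0.46) and the proline synthesis enzyme Aldh18a1 (1.82 ± 0.34), and among those lower were the translation repressor Eif4ebp1 (-1.89 ± 0.30) and the stress protein Nupr1 (-1.53 ± 0.28). The median was 0.12 under the Jag antibodies, where 4 of 37 were called higher and 2 lower and 9.5% of all tested genes were called. Eif4ebp1 (-1.34) and Nupr1 (-0.87) were again lower there, and Pck2 (1.06) and the tyrosyl-tRNA synthetase Yars (0.50) were higher.

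With hormone under the control antibody 6 of 20 chaperones or ATF6 and XBP1 targets were called higher and 1 lower (median 0.21). The counts of this and the following lists are to be read against the 43.2% of all tested genes called in that comparison. Length slopes did not overlap between these 2 groups (-0.542 to -0.0593 without and 0.0407 to 0.247 with hormone). The part of transcript length and of cell composition in the differences of the list genes was not tested. The sensor Ern1, which encodes IRE1, was higher by 1.42 ± 0.34 and the sensor Atf6 by 0.73 ± 0.17, and the secreted ER factor Manf was called lower, at -1.12 ± 0.34. In ER-associated degradation 4 of 12 were called higher, among them Sel1l (0.68) and Os9 (0.37), and 4 lower, among them Derl1 (-1.26) and Derl2 (-0.81). Around eIF2alpha 2 of 11 genes were called higher, both of them kinases, Eif2ak2 (1.14) and Eif2ak3 (0.68), the latter encoding PERK. The 4 genes called lower there included the exchange factor subunits Eif2b1 (-0.64) and Eif2b3 (-0.72). Cytosolic heat shock had 2 of 7 called lower, Dnajb1 (-1.83) and Hspa8 (-1.51), with a median of -1.49. Mitochondrial chaperones and proteases had 3 of 8 called lower, among them the protease Clpp (-1.82) and the chaperone Hspe1 (-1.82). Of the p53 targets Zmat3 was called higher (1.06), and no serine and glycine gene was called.

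With hormone under the Jag antibodies the calls outside the ATF4 targets were 4, against 9.5% of all tested genes. Derl1 was called lower (-1.02), as was the p53 target Bbc3 (-1.60), and the serine and glycine genes Shmt1 (1.26) and Slc1a4 (1.02) were called higher.

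The antibody comparisons called few genes of these lists, as of all tested genes (1.14% at 15 h, 8.02% at 5 d, 2.5% at 7 d and 1.14% with hormone). Pck2, the mitochondrial enzyme that makes phosphoenolpyruvate and an ATF4 target, was called higher under the Jag antibodies in 3 of the 4 comparisons, by 0.72 ± 0.20 at 5 d, by 0.86 ± 0.21 at 7 d and by 0.87 ± 0.21 when hormone was given, with edgeR adjusted p of 0.0274, 0.0192 and 0.0221. Shmt1, a folate enzyme that interconverts serine and glycine, was called higher at 5 d (1.00 ± 0.26) and at 7 d with hormone (0.96 ± 0.25). At 5 d the tRNA synthetase gene Aars (-0.42) and the exchange factor subunit Eif2b2 (-0.66) were called lower. Muscle scores at 5 d had no overlap between antibodies (control 5.10 to 13.7, Jag -2.69 to 2.20). Holding that score in the edgeR fit cut the calls among all tested genes at 5 d from 1369 to 89. The part of muscle RNA in the 5 d values of Pck2, Shmt1, Aars and Eif2b2 was not tested. At 7 d Psph, the last enzyme of serine synthesis, was called lower (-0.96 ± 0.26), as was the heat shock co-chaperone Dnajb1 (-1.48 ± 0.25), and Os9 was called higher (0.45). With hormone Cth, which makes cysteine, was called higher (1.46 ± 0.34).

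Mice of the same group differed from each other in these genes, and the deviations from the group mean were compared over the 40 mice. Of 45 pairs of members, 3 were correlated after adjustment, all positively (permutation test within groups, two-sided). The share of correlated pairs among other tested genes was not taken, so the count is not particular to these genes. Of the library measures only the muscle score was removed from the pairs, and the part of the myeloid score and the length slope in them was not tested. Chac1 and Xbp1 had a Pearson r of 0.58 (permutation p = 7.00e-05, adjusted p = 0.00315) and a Spearman rho of 0.56 (permutation p = 0.000330), and r was 0.58 without the 2 mice farthest from the median. Atf4 and its feedback partner Ppp1r15a had an r of 0.57 (permutation p = 0.000380, adjusted p = 0.00855) and a rho of 0.61 (permutation p = 0.000200), deviated the same way in 32 of 40 mice, and had an r of 0.60 without the 2 farthest mice. Ddit3 and Trib3 had an r of 0.54 (permutation p = 0.00262, adjusted p = 0.0393) and a rho of 0.49 (permutation p = 0.00629). For this pair r was 0.35 without the 2 mice farthest from the median in Ddit3 (permutation p = 0.0454, adjusted p = 0.185), so the call depends on them. With the muscle score removed from both genes r was 0.53, and the pair was not called (permutation test, adjusted p = 0.0607). Atf4 and Asns had an r of -0.03 (permutation p = 0.905, adjusted p = 0.925) and a rho of -0.00375 (permutation p = 0.984). Asns and Chac1 had a negative r of -0.51 that was not called (permutation p = 0.00587, adjusted p = 0.0659). Without the 2 farthest mice this pair (r = -0.50, adjusted p = 0.0455) and Ddit3 and Chac1 (-0.55, 0.0271) were called negative in the permutation test. Asns and Trib3 (0.44, 0.0455) were then called positive.

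The same deviations were compared with 3 library measures, giving 30 relations of which 9 had an adjusted p under 0.05 in the permutation test. The share for other tested genes was not taken here either. Ddit3 ran against the length slope (r = -0.76, rho = -0.72, permutation p = 7.00e-05 for each, adjusted p = 0.00210; r = -0.66 without the 2 farthest mice), as did Trib3 (r = -0.52) and Atf4 (r = -0.51). Xbp1 followed the myeloid score (r = 0.66, permutation p = 0.000200, rho = 0.63, permutation p = 0.000420, adjusted p = 0.00240; r = 0.55 without the 2 farthest), as did Hspa5 (r = 0.62), Atf4 (r = 0.57) and Chac1 (r = 0.43). Chac1 (r = 0.51) and Phgdh (r = 0.44) followed the muscle score. These 3 measures are values of the libraries, and what part they have in the differences between mice was not tested.

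**Figure D4:**
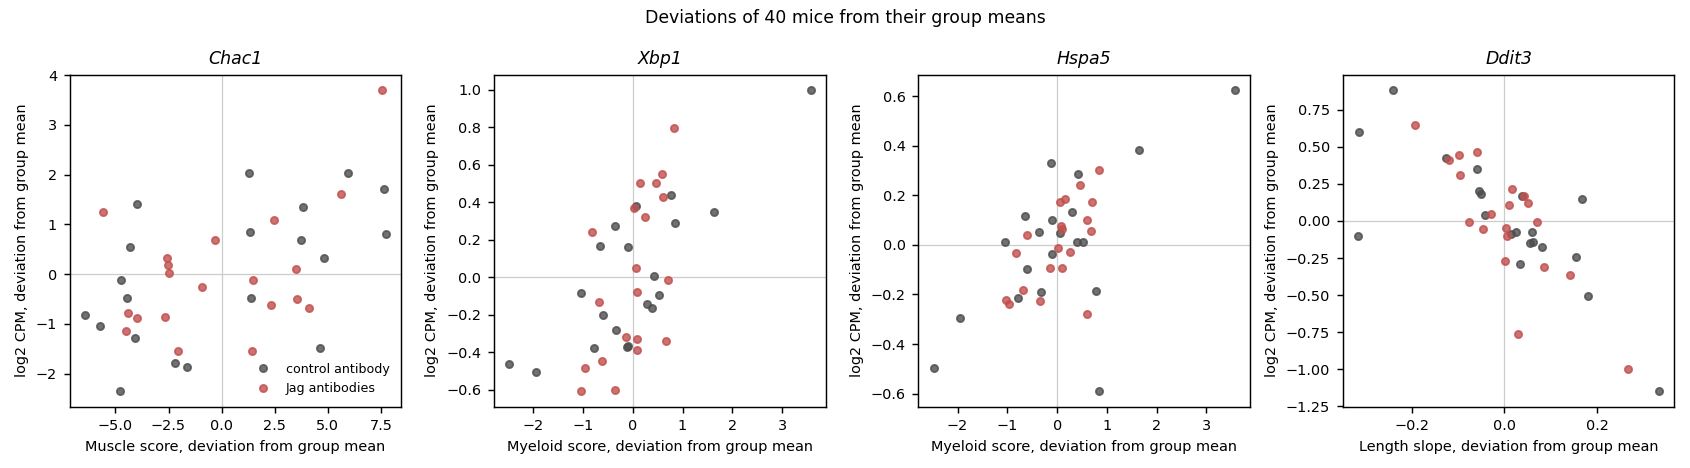
Deviation of each of the 40 mice from its group mean, in log2 CPM (y axis), against the deviation of its muscle score, myeloid score or length slope (x axis), grey for control and red for Jag antibodies. Chac1 rises with the muscle score (r = 0.51), Xbp1 and Hspa5 rise with the myeloid score (0.66 and 0.62) and Ddit3 falls with the length slope (-0.76).

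For the members other than Sesn2 the gene with the most similar log2 CPM over all 40 libraries was found by Pearson r, which takes in differences between groups and in library make-up and is given as a description. Ddit3 was nearest to BC031181 (r = 0.91), Asns to Hsd17b10 (0.91), a mitochondrial dehydrogenase, and Chac1 to Tpm3 (0.87), a tropomyosin. Hspa5 was nearest to Cyp20a1 (0.85), Atf4 to Sertad1 (0.85) and Phgdh to Cfd (0.85), the adipocyte protein adipsin. Ppp1r15a was nearest to the immediate early gene Egr2 (0.80), Xbp1 to Hcar2 (0.80) and Trib3 to Elp6 (0.70). Members themselves were left out of this search.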

How the data were processed

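Per the labels' protocols, RNA was extracted with Trizol and columns and sequenced as single-end reads. The authors deposited whole-number counts for each Ensembl gene and, for the same genes and mice, FPKM values. GSNAP and limma are named without versions in the submitters' processing notes. The counting program, annotation, genome build and use of the strand are not given in the sources used here.

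The count test was that of edgeR 4.0.16 (R 4.3.3): filterByExpr, TMM scaling, a robust quasi-likelihood fit with 8 group means over the 40 mice (32 residual degrees of freedom), and Benjamini-Hochberg adjustment over all 17079 genes, with a gene called at an adjusted p under 0.05. Levels are log2 CPM with a prior count of 2, and per length CPM per kb of exon (GENCODE M21). Symbols matched 52403 of 52636 identifiers. The fit was checked on simulated data. Beyond the traits given at the start, the labels tell mice of a group apart only by number, so p-values measure the spread between these samples. Replicates within a group correlated at a median of 0.959, the lowest at 0.846, and no 2 libraries were identical.

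Named genes were all members, in each pathway list and comparison at most the 2 called genes of smallest adjusted p per direction with a mean log2 CPM of at least 1, and the nearest gene of each member, of which that of Sesn2 is not reported here. The members and lists were chosen with earlier results of these data known. Alternatives were DESeq2 1.42.0, limma 3.58.1 (voom, and log2 of the deposited FPKM plus 1), other scaling, no filter, covariates, length and GC offsets, a replicate block, fewer groups and fewer mice. Correlations used 100000 permutations within groups (numpy 2.4.6). Promoter sequences are RefSeq's, and all 10 members matched.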

Additional observations from a re-analysis of the deposited data

Results flagged for a closer look

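In 4 of the 80 sets of 5 mice (10 genes in 8 groups), 1 mouse lay far from the other 4, with a gap to its neighbour above 0.71 of the range. Chance flags about 1 in 20 such sets, that is 4 of 80. Ddit3 was 4.94 log2 CPM in Jag antibody mouse 8 given hormone, with the next mouse at 4.82. Asns was 7.05 in control mouse 2 at 5 d, with the next at 6.19, and the antibody estimate at 5 d is called without that mouse. Ppp1r15a was 5.07 in Jag antibody mouse 6 at 7 d, with the next at 4.07, and 3.67 in control mouse 2 given hormone, with the next at 4.36. The antibody effect on Chac1 was flagged as differing between collection times, with an interaction adjusted p of 0.0401 in the edgeR test. That call was lost in 19 of 30 fits without 1 mouse and under 11 of 14 other alternatives. Chac1 was lower under the Jag antibodies at 5 d and higher by estimate at 7 d, where 1 mouse held 1248 counts.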

How the results depend on the processing

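No called result changed direction. Of 1237 alternative estimates 44 had the opposite sign, over 15 of 60 pairs of a member and a comparison, none of them called in either fit. Among them Atf4 at 5 d went from -0.03 to 0.27 with length and GC offsets. Of the members called at 5 d (1), no low-count filter, the muscle score covariate, limma voom and limma on FPKM left 0, and length and GC offsets gave 4. Leaving out 1 mouse gave 0 to 2 at 5 d, 0 at 15 h, 0 to 1 at 7 d and 0 to 1 at 7 d with hormone. Without the 2 mice of highest muscle score 1 was called at 7 d. With hormone under the control antibody 3 to 4 were called without 1 mouse. With hormone under the Jag antibodies the counts were 1 to 2 without 1 mouse, 0 by limma on FPKM, 2 with only the groups compared (where Phgdh did not pass the filter), 5 with the myeloid covariate and 2 without the mice of highest muscle score. Mean FPKM of Phgdh there was 0.0641 without and 0.0105 with hormone, far below the 1 added before the log. Its estimate by limma on FPKM was -0.07. The antibody by hormone interaction stayed at 0 to 0. Over time in control mice 3 to 5 were called without 1 mouse, 1 with only the groups compared and 2 without control mice 2 and 4 at 7 d. Over time under the Jag antibodies 2 to 3 were called without 1 mouse, 1 with the muscle covariate, voom, FPKM or without the mice of highest muscle score, and 4 with the myeloid covariate. The antibody by time interaction gave 0 to 1 without 1 mouse and 0 without a filter, with the muscle or myeloid covariate, by voom or FPKM, with only the groups compared, and without the 3 libraries apart at 15 h, control mice 2 and 4 at 7 d, or the mice of highest muscle score. Without the 2 farthest mice 5 pairs of members were correlated, with Ddit3 and Chac1, and Asns and Chac1, correlated negatively. Ddit3 and Trib3 were not among these pairs. The cause of these changes was not tested. Myeloid and left-out-library settings were chosen after seeing the data.

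Antibody comparisons share no replicate number. In hormone and time comparisons same numbers mark different animals. Their deviations correlated at 0.0950 to 0.208 on average, with the lowest pair at -0.542, and 1 to 2 of 5 mice correlated best with their own number, so the numbers were not taken as pairs. With the replicate block 1 member was called over time under the Jag antibodies and 0 in the antibody by time interaction. With both the block and the offsets for length and GC content 2 were called with hormone under the control antibody and 0 in that interaction. Low counts of Chac1 and Phgdh limit what could be detected for them.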
